A study of Danio rerio with 2 samples.

Results

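The genes described here encode the subunits of the oxidative phosphorylation machinery, in the nuclear and in the mitochondrial genome of zebrafish. They were chosen by symbol, from the prefixes ndufa, ndufb, ndufc, ndufs, ndufv, *sdha* to sdhd, uqcr, *cyc1*, *cox4i*, cox5 to cox8 and atp5, without the ndufaf and sdhaf assembly factors, together with the protein genes mt-nd, mt-co, *mt-cyb* and mt-atp. Of 32059 features, 109 were members, 96 of them nuclear and 13 mitochondrially encoded. The nuclear members were 38 genes of complex I, 6 of complex II, 9 of complex III, 24 of complex IV and 19 of complex V, and the mt- members were 7 genes of complex I, 1 of complex III, 3 of complex IV and 2 of complex V.

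Oxidative phosphorylation takes place in the inner mitochondrial membrane. Complex I accepts electrons from NADH and complex II from succinate, complex III passes them to cytochrome c, complex IV passes them to oxygen, and complex V uses the resulting proton gradient to make ATP. Complex II is encoded only in the nucleus, and the other complexes combine nuclear subunits with a few that are encoded in mitochondrial DNA. Hair cells (HCs) of the inner ear and of the lateral line are mechanosensory cells whose hair bundles, ion pumps and synapses depend on mitochondrial ATP and on mitochondrial calcium uptake.

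The study asked how loss of *hsd17b7*, which encodes an enzyme of cholesterol synthesis, alters zebrafish HCs. One library came from *hsd17b7* mutant larvae, labelled KO, and 1 from control larvae, labelled Wild-type. Both carried Tg(Brn3c:mGFP), in which *Brn3c* (pou4f3) regulatory sequence drives membrane GFP in HCs and in some neurons, and GFP-positive cells were sorted at 4 dpf after trypsin dissociation. The paper describes the mutant allele as a small frameshifting deletion in *hsd17b7* made with CRISPR/Cas9. With 1 library per genotype there was no replicate, so no test between genotypes was possible. All ranges in brackets are exact 95% intervals that cover counting error only, and differences are described by size, with 1.5-fold as the limit for counting a gene as higher or lower.

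Barcodes with at least 500 detected genes were kept, 8594 of 10119 in the mutant and 17442 of 19270 in the control library. HCs (at least 3 UMIs of *myo6b*, an HC myosin) numbered 975 and 1158 barcodes, neurons (at least 1 UMI of *elavl3*) 3731 and 3568, hepatocytes (at least 2 UMIs each of *tfa* and *fabp10a*) 622 and 1073, and the rest 2933 and 11265, in mutant and control. Barcodes that passed more than 1 gate, 333 and 378, were left out. A list of 16 HC markers that were not used for the gate summed to 21239 CPM in mutant and 12953 CPM in control HCs, against 87.6 to 751 CPM in the other groups, and none of the 16 was at 0 in HCs. Neuron markers summed to 7281 and 4646 CPM in neurons, and hepatocyte markers to 146656 and 72633 CPM in hepatocytes. The hepatocyte list includes the gate genes *tfa* and *fabp10a*, so its sum was partly set by the gate. mGFP itself was found in HCs (1033 and 562 CPM) and in neurons (387 and 314 CPM) and was nearly absent from hepatocytes (3.35 and 1.92 CPM). Globin made up 21.9% of the UMIs of the rest in the control library and 0.00689% in the mutant library, and 8.38% of control neuron barcodes held at least 20% globin. *hsd17b7* was at 255 CPM in mutant and 134 CPM in control HCs. Tags from the 3′ end do not cover a deletion inside the coding region, so this level does not check the genotype. The mutant matrix was written by Cell Ranger 9.0.1 and the control matrix by Cell Ranger 7.1.0, so genotype, version, sort and library cannot be told apart in any difference between the libraries.

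Nuclear subunit transcripts took the largest share of UMIs in hepatocytes and the smallest in neurons, and HCs lay between these groups in both libraries. Their share was 3.45% in mutant and 1.95% in control HCs, 1.52% and 0.901% in neurons, 4.10% and 3.37% in hepatocytes, and 2.09% and 1.08% in the rest. The 13 mt- genes took 2.61% in mutant and 2.15% in control HCs, 2.05% and 1.54% in neurons, 4.43% and 2.65% in hepatocytes, and 4.37% and 1.82% in the rest. Among mutant HCs the nuclear share per barcode had quartiles of 1.68% and 4.46% around a median of 2.78%, and among control HCs quartiles of 1.02% and 2.49% around a median of 1.64%. The quartile ranges of HC barcodes therefore overlapped between the libraries.

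**Figure D1:**
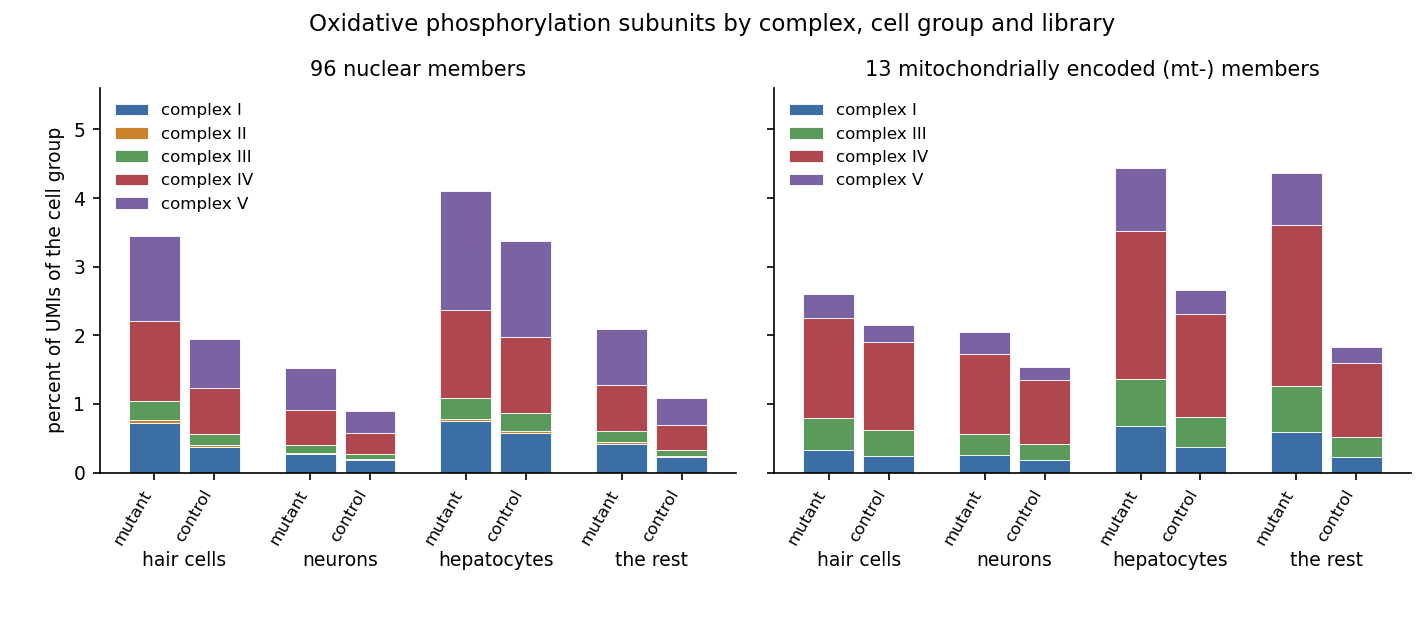
Percent of all UMIs of a cell group taken by the 96 nuclear (left) and 13 mt- members (right), stacked by complex, for the mutant and the control library. Nuclear subunits made up 3.45% of mutant and 1.95% of control HC UMIs, and hepatocytes were the highest group for nuclear members in both libraries.

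The balance of nuclear to mitochondrially encoded transcripts differed between the groups. HCs had 1.32 nuclear UMIs per mt- UMI in the mutant and 0.907 in the control library, neurons had 0.741 and 0.585, hepatocytes 0.926 and 1.27, and the rest 0.477 and 0.593. The mutant library was thus higher in nuclear relative to mt- UMIs in HCs and neurons, and lower in hepatocytes and the rest. Between the libraries this ratio differed by 0.54 on the log2 scale in HCs, 0.34 in neurons, -0.46 in hepatocytes and -0.31 in the rest. Barcodes with over 20% mt- UMIs, which can mark damaged cells, were 199 in the mutant and 51 in the control rest, 36 and 1 among hepatocytes, and 9 and 1 among HCs.

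HCs were compared with neurons, the other abundant mGFP-carrying cells, within each library. Nuclear subunits were higher in HCs by a median log2 ratio of 1.25 in the mutant and 1.1 in the control library, while the medians over all features tested were -0.11 and -0.07. Of the 96 nuclear members, 91 had the 50 UMIs in the 2 groups together that were required in each library. Among these 91, 81 were at least 1.5-fold higher in both libraries and 1 was lower in both, against 22.1% of all features higher and 27.2% lower. In each library by itself, 84 were higher and 2 lower, where 30.7% (mutant) and 27.8% (control) of all features were higher and 37.4% and 31.8% lower. Every complex had a positive median. It was 1.46 and 1.11 for complex I, 0.93 and 0.91 for complex II, 1.32 and 1.09 for complex III, 1.05 and 1.3 for complex IV and 1.05 and 1.1 for complex V, in mutant and control. Median depth was 11646 and 13669 UMIs in HCs and 5395 and 6967 UMIs in neurons. Within both groups the nuclear share rose with the UMIs of a barcode (Spearman's rho 0.44 and 0.33 in HCs, 0.43 and 0.28 in neurons). The part of this relation in the difference was not tested.

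The mt- members differed less between HCs and neurons than the nuclear members did. Their median log2 ratio was 0.34 in the mutant and 0.45 in the control library, and all 13 were above 0 in both. At least 1.5-fold higher were 3 of 13 in the mutant and 6 of 13 in the control library, against 30.7% and 27.8% of all features. The smallest ratios were those of *mt-co3*, a catalytic core subunit of complex IV, at 0.17 and 0.32, and the largest in the mutant library was that of *mt-nd6* at 0.90.

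*cox4i1l* was the member with the highest HC level relative to neurons. It is a copy of *cox4i1*, which encodes subunit 4 of complex IV, the first subunit to join the catalytic core. *cox4i1l* was at 149 CPM in mutant HCs and 8.78 CPM in mutant neurons, and at 86.3 CPM in control HCs and 4.80 CPM in control neurons, so the log2 ratios were 4.08 [3.87, 4.30] and 4.17 [3.92, 4.42]. The next highest were *cox6b1*, a complex IV subunit that faces the intermembrane space (436 against 106 CPM in the mutant and 265 against 71.6 CPM in the control library), and *ndufa7*, a complex I accessory subunit (154 against 34.2 CPM and 60.5 against 20.2 CPM). Their log2 ratios lay between 1.58 and 2.17, while *cox4i1l* was 16.9-fold higher in the mutant and 18-fold higher in the control library.

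At the other end, *ndufa4l2a* was lower in HCs than in neurons. In mammals NDUFA4L2 is induced by low oxygen. *ndufa4l2a* was at 0.330 against 9.23 CPM in the mutant and at 1.17 against 7.31 CPM in the control library, and its HC level in the mutant rested on 4 UMIs. The next lowest were *atp5mea*, subunit e of complex V, with log2 ratios of 0.55 and 0.41, and *ndufa6*, a complex I accessory subunit, with 0.89 and 0.17. Both of these were still higher in HCs.

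HCs were lower than hepatocytes in mt- transcripts, and for nuclear transcripts the libraries gave different sizes. The nuclear median log2 ratio of HCs over hepatocytes was -0.15 in the mutant and -0.69 in the control library. The medians over all features were 1.22 and 1.17, and 1.07 and 0.89 over features with at least 500 UMIs in the 2 groups together. In both libraries 89 nuclear members passed the UMI minimum, of which 3 were at least 1.5-fold higher and 18 lower in HCs in both, against 57.3% of all features higher and 13.6% lower. In the mutant library alone 8 were higher and 18 lower of 89 (63.9% and 18.3% of all features), and in the control library alone 3 were higher and 58 lower of 90 (64.4% and 15.3%). With inner ear HCs alone, an alternative chosen after seeing the data, the mutant median was 0.026 and the control median -0.51. Complex V was the complex with the lowest nuclear median in both libraries, at -0.51 and -1.03, and complex II, with 4 members tested, had the highest at 0.24 and -0.23. The mt- median was -0.88 and -0.52, and all 13 mt- genes were below 0 in both libraries.

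The members farthest below hepatocytes were complex IV isoforms. *cox7a1*, whose mammalian counterpart is the heart and muscle isoform of subunit 7A, was at 4.21 against 82.1 CPM in the mutant and 3.06 against 31.6 CPM in the control library. *cox6a2*, also a heart and muscle isoform in mammals, was at 3.96 against 61.4 CPM and 4.07 against 14.7 CPM. *COX7A2*, another of the 4 genes in the *cox7a* family by symbol, was at 51.4 against 332 CPM and 51.1 against 273 CPM. All 3 were higher in hepatocytes than in HCs in both libraries. *cox7a2a*, the most abundant gene of this family, was at 936 against 674 CPM in the mutant and 508 against 628 CPM in the control library. The 6 skeletal muscle markers summed to 11.3 CPM in mutant HCs against 5.67 CPM in mutant hepatocytes, and to 167 CPM against 60.8 CPM in the control library, and their part in the levels of *cox7a1* and *cox6a2* was not tested. The members farthest above hepatocytes were *cox4i1l* (149 against 17 CPM and 86.3 against 24.5 CPM), *ndufa4* (160 against 22.1 CPM and 156 against 94.8 CPM) and *sdhb*, the iron-sulfur subunit of complex II (158 against 75.8 CPM and 93.0 against 62.4 CPM).

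Free RNA of hepatocytes could add to the other groups. *apoa1b*, an apolipoprotein gene of hepatocytes, was at 67.3 CPM in mutant HCs, or 0.191% of its hepatocyte level, and at 57.4 CPM in control HCs, or 0.323%. Those shares of the nuclear subunit total of hepatocytes come to 78.4 CPM and 109 CPM, beside HC totals of 34491 CPM and 19498 CPM. HC barcodes that also passed the hepatocyte gate had been left out, so the *apoa1b* level in HCs was partly set by the gates. The part of free RNA in the HC levels was not tested.

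Against the rest, nuclear members were higher in HCs, and the direction for mt- members differed between the libraries. The rest held skin and supporting cell markers and, in the control library, globin. Skin markers summed to 2175 CPM in the mutant and 1624 CPM in the control rest, beside 802 and 745 CPM in HCs. Supporting cell markers were at 1917 and 908 CPM in the rest and at 948 and 920 CPM in HCs, so in the control library they did not set the rest apart. The nuclear median log2 ratio of HCs over the rest was 0.77 in the mutant and 0.87 in the control library. Medians over all features were -0.10 and 0.32, and 0.19 and 0.38 over features with at least 500 UMIs in the 2 groups together. With CPM computed without globin and the whole mitochondrial genome, chosen after seeing the data, the control nuclear median was 0.53. That is under 1.5-fold, and members were not counted under that scaling. Other settings for globin are given with the alternatives. Of 91 nuclear members tested in both libraries, 55 were at least 1.5-fold higher and 4 lower in both, against 24% and 16% of all features. Singly, 59 of 91 were higher and 7 lower in the mutant library (28.5% and 38.3% of all features) and 71 of 93 were higher and 5 lower in the control library (39.1% and 20.7%). The mt- median was -0.77 in the mutant and 0.19 in the control library. Without barcodes of over 20% mt- UMIs the mutant value was -0.056, and with CPM computed without globin the control value was -0.13, so the size and the direction of the mt- difference changed with these settings.

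The 4 nuclear members lower in HCs than in the rest in both libraries were *cox4i2*, *cox6a2*, *cox7a1* and *ndufa4l2a*, all of complex IV, and *ndufa4l2a* passed the UMI minimum in the mutant library with only 4 UMIs in HCs. *cox4i2*, an isoform of subunit 4 that responds to oxygen in mammals, was at 3.88 against 25.3 CPM in the mutant and 11.9 against 40.9 CPM in the control library. *cox4i1l*, *ndufa4* and *cox6b1* were the highest members over the rest, with log2 ratios of 2.98 and 3.30, 1.52 and 2.33, and 1.21 and 2.16.

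**Figure D2:**
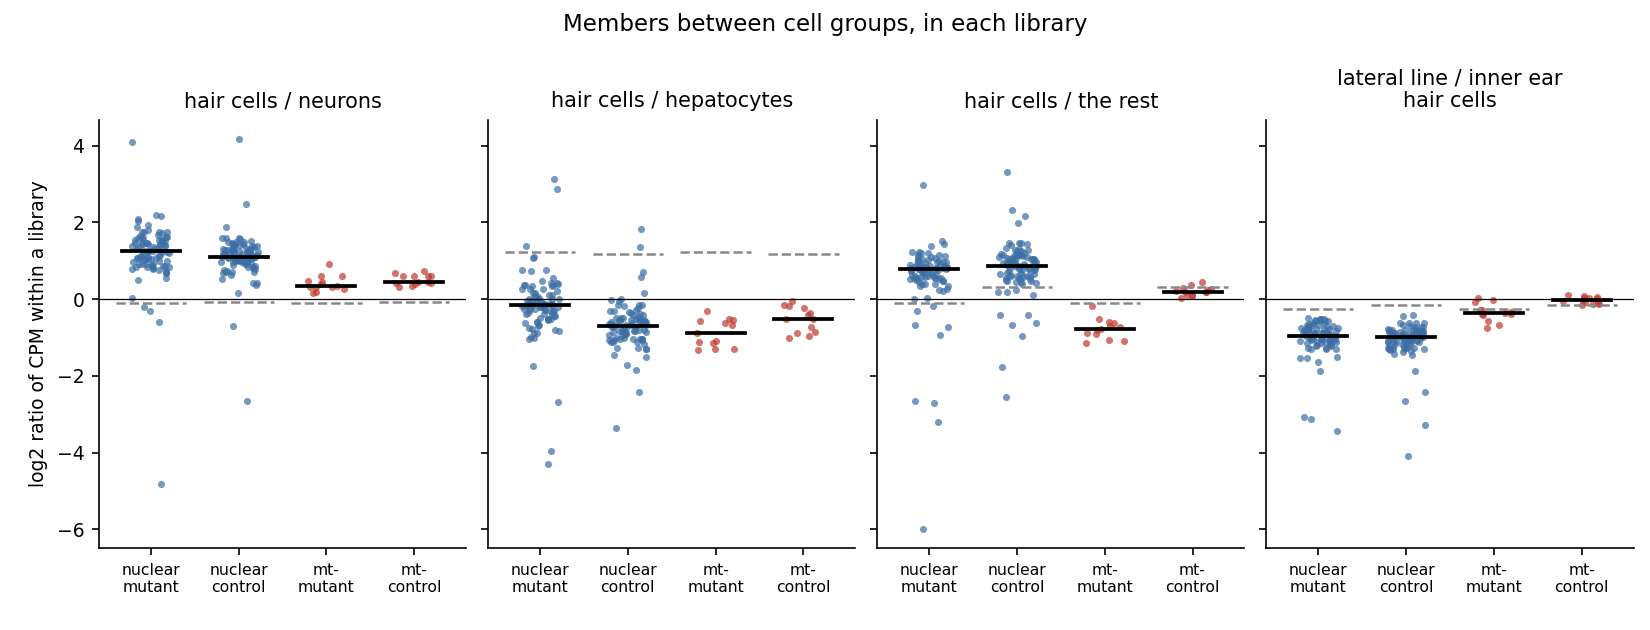
Log2 ratio of CPM between cell groups for each member with at least 50 UMIs (points: blue nuclear, red mt-), with the median of the members (black bar) and of all features (grey dashed bar), in the mutant and the control library. Nuclear medians lay at 1.25 and 1.1 for HCs over neurons and at -0.96 and -1 for lateral line over inner ear HCs, while mt- medians stayed between -0.88 and 0.45 in every panel.

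HCs were then divided by their *lhfpl5* copy, with *lhfpl5b* marking lateral line HCs (LLHCs, 57 mutant and 91 control barcodes) and *lhfpl5a* marking inner ear HCs (IEHCs, 666 and 742 barcodes). Nuclear subunits were lower in LLHCs than in IEHCs in both libraries. They made up 2.05% of UMIs in mutant LLHCs against 3.91% in mutant IEHCs, and 1.07% in control LLHCs against 2.20% in control IEHCs. The median log2 ratio was -0.96 in the mutant and -1 in the control library, beside -0.26 and -0.15 over all features. Of 86 nuclear members tested in both libraries, 76 were at least 1.5-fold lower in LLHCs in both and 0 were higher, against 19.6% and 8.26% of all features. The 76 include *cox5b2* (2 UMIs in mutant and 3 in control LLHCs) and *cox8b* (5 and 8 UMIs), which passed the UMI minimum through their IEHC counts, and *cox4i2* passed in the control library with 6 UMIs in LLHCs. Singly, 77 of 86 were lower in the mutant library (35.2% of all features) and 85 of 87 in the control library (28.8%), and 0 were higher in either (14.2% and 17% of all features).

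The difference was seen in every complex and did not extend to the mt- genes to the same degree. Nuclear medians of LLHCs over IEHCs lay between -0.89 and -1.04 for the 5 complexes in the mutant and between -0.98 and -1.01 in the control library. The mt- median was -0.35 in the mutant and -0.01 in the control library, and 11 of 13 mt- genes in the mutant and 13 of 13 in the control library lay within 1.5-fold. Per barcode, the quartiles of the nuclear share were 1.68% and 2.46% in mutant LLHCs against 2.43% and 5.02% in mutant IEHCs, and 0.718% and 1.36% in control LLHCs against 1.51% and 2.79% in control IEHCs. Median depth was 12775 UMIs in mutant LLHCs and 12704 in mutant IEHCs, and 14556 in control LLHCs and 14358 in control IEHCs. The LLHC profiles rested on 16245 mutant and 15438 control nuclear UMIs. The 16 HC markers summed to 36627 CPM in mutant LLHCs against 23213 CPM in mutant IEHCs, and to 26342 CPM against 15272 CPM in the control library. They include *lhfpl5a* and *lhfpl5b*, which divided the HCs, so these sums were partly set by the division. Markers of supporting cells and skin were also higher in LLHCs than in IEHCs. The 4 supporting cell markers summed to 922 against 797 CPM in the mutant and 2995 against 717 CPM in the control library, with 2 of the 4 at 0 in mutant LLHCs, and the 5 skin markers to 1332 against 788 CPM and 1118 against 796 CPM. Skeletal muscle markers were at 39.2 against 7.67 CPM and 68.2 against 67.5 CPM. Blood markers were lower in LLHCs, at 0 against 17.8 CPM in the mutant and 15983 against 20551 CPM in the control library. Neuron and hepatocyte markers were lower than in IEHCs in mutant LLHCs and higher in control LLHCs. The part of any of these markers in the lower nuclear share was not tested.

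Complex IV genes again stood at the end of this range. *cox4i1l* was at 16.4 CPM in mutant LLHCs against 179 CPM in mutant IEHCs, and at 6.96 against 117 CPM in the control library. *ndufa4*, which encodes a subunit first assigned to complex I and now to complex IV, was at 22.7 against 189 CPM and at 18.8 against 181 CPM. *cox6b1* was at 59.4 against 519 CPM and at 84.2 against 310 CPM. These 3 genes were named here after their values were seen. In LLHCs, *cox4i1l* and *ndufa4* each had at most 45 UMIs in both libraries together. Both passed the UMI minimum for LLHCs over IEHCs through their IEHC counts, so their LLHC levels are imprecise. *cox4i1l* and *ndufa4* were higher in HCs than in neurons, hepatocytes and the rest in both libraries, and *cox6b1* was higher than in neurons and the rest and lower than in hepatocytes. Their LLHC levels were within or below the range of these other groups.

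The paralogs of subunit 4 peaked in different cell groups in both libraries. *cox4i1* was highest in hepatocytes (1113 CPM in the mutant and 820 CPM in the control library), *cox4i1l* in HCs and *cox4i2* in the rest. *cox4i1l* supplied 14.1% [13.5, 14.7] of all *cox4i* UMIs in mutant HCs and 15.3% [14.6, 16.0] in control HCs, against 1.57% and 1.62% in neurons, 1.5% and 2.89% in hepatocytes and 2.85% and 2.55% in the rest. With every barcode thinned to 4000 UMIs, *cox4i1l* was found in 31.1% of mutant and 22.3% of control HCs, and in 1.94% and 1.49% of neurons. Without thinning these shares were 44.5% and 41.0% of HCs, at median depths of 11646 and 13669 UMIs, and 2.65% and 3.14% of neurons, at 5395 and 6967 UMIs. The 67 mutant and 42 control HCs and the 890 mutant and 415 control neurons under 4000 UMIs did not enter the thinned shares.

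In the *ndufa4* family, *ndufa4* was highest in HCs, *ndufa4l* in hepatocytes and *ndufa4l2a* in neurons or the rest. *ndufa4l* was the abundant copy, at 897 and 664 CPM in mutant and control HCs and at 1066 and 1074 CPM in hepatocytes. *ndufa4* was at 22.1 CPM [19.8, 24.6] in mutant hepatocytes against 94.8 CPM [91.1, 98.6] in control hepatocytes, a log2 ratio of -2.10, while it was at 160 and 156 CPM in mutant and control HCs. *sdhda* and *sdhdb*, copies of a membrane anchor of complex II, also peaked apart, but *sdhda* stayed under 1 CPM everywhere, at most 0.980 CPM in mutant neurons, beside 111 and 68.6 CPM of *sdhdb* in HCs. How reads shared by such copies were divided was not checked here, so single paralog levels are uncertain.

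**Figure D3:**
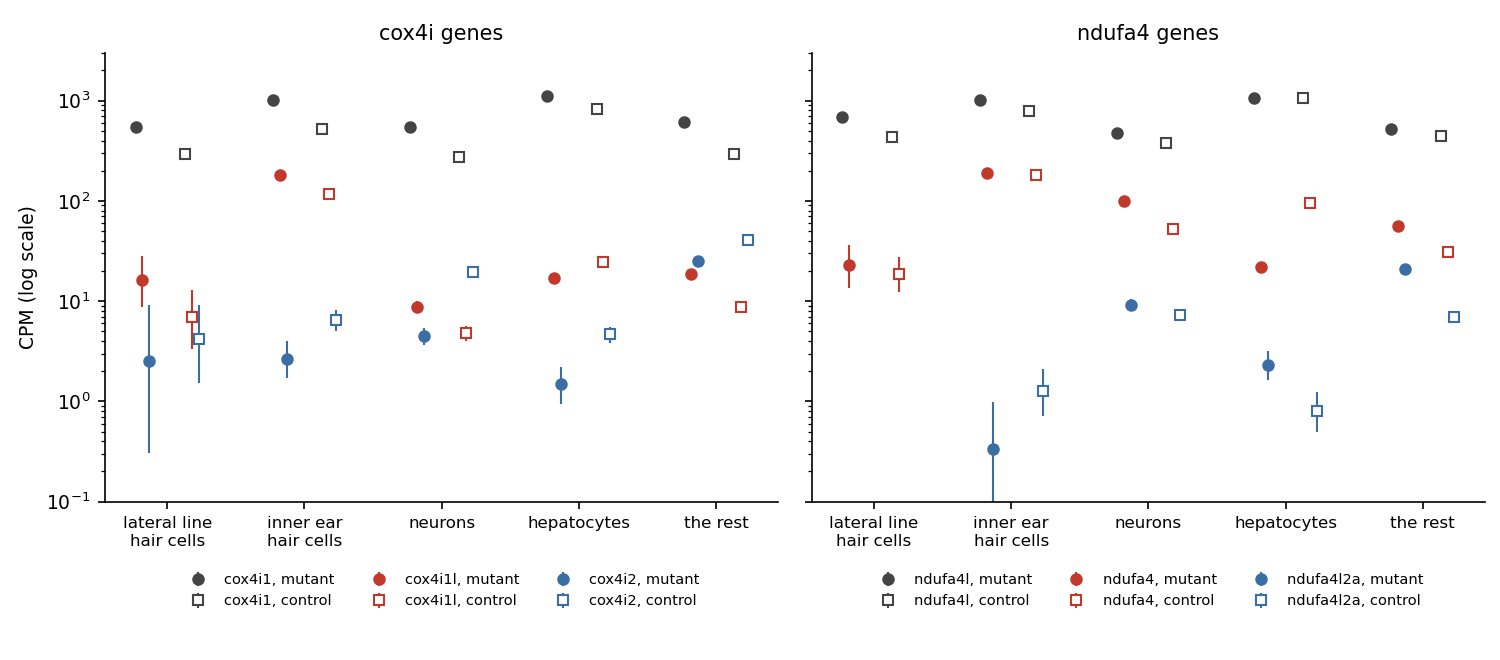
CPM on a log axis of 3 *cox4i* genes and 3 *ndufa4* genes in lateral line HCs, inner ear HCs, neurons, hepatocytes and the rest, in the mutant (filled circles) and control library (open squares), with 95% Poisson intervals. *cox4i1l* was at 179 and 117 CPM in IEHCs and at 16.4 CPM or less in LLHCs; *ndufa4l2a* had 0 UMIs in LLHCs and is not drawn there.

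Between the genotypes, nuclear subunits were higher in the mutant library in HCs. Their median log2 ratio of mutant over control was 0.82, against -0.16 over all 16587 features tested. Over features with at least 500 UMIs in the 2 profiles together the median was 0.05, so the background depends on how well features are counted. Of 96 nuclear members, 90 had at least 50 UMIs in the 2 HC profiles together, and 71 of these were at least 1.5-fold higher and 2 lower in the mutant library, beside 16.1% of all features higher and 33.2% lower. At 2-fold, 21 were higher and 1 lower, and the share of all features was not computed at that limit. The 6 members under the minimum were *ndufa9b*, *ndufs1*, *ndufs8b*, *SDHB*, *sdhda* and *ndufa4l2a*, with at most 31 UMIs, and the least counted member above it was *ndufa4l2b* with 61 UMIs. No member passed with under 10 UMIs on one side.

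Each complex was higher in the mutant HCs, and complex IV was the most uneven. In complex I, 32 of 35 members tested were at least 1.5-fold higher, with a median log2 ratio of 0.91. In complex II it was 2 of 4 with a median of 0.61, in complex III 7 of 9 with 0.81, in complex V 17 of 19 with 0.84, and none of these had a member 1.5-fold lower. In complex IV 13 of 23 were higher and 2 lower, with a median of 0.75 and a lower quartile of 0.09.

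The highest and lowest members of complexes I and II spanned different ranges. *NDUFB1*, an accessory subunit of complex I, was at 81.6 CPM in mutant and 28.7 CPM in control HCs, a log2 ratio of 1.51 [1.35, 1.66]. *ndufb11*, also an accessory subunit, was at 49.7 against 57.3 CPM, a log2 ratio of -0.21 [-0.35, -0.06], the only complex I member whose interval lay below 0. In complex II the electron-carrying *sdhb* was at 158 against 93.0 CPM (0.76 [0.67, 0.86]) and the flavoprotein *sdha* at 104 against 80.7 CPM (0.36 [0.25, 0.47]).

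No tested member of complexes III and V had a ratio below 0, and 2 members of complex IV were 1.5-fold lower in mutant HCs. *uqcrc1*, a core protein of complex III, was at 271 CPM in mutant and 130 CPM in control HCs (1.06 [0.98, 1.14]), and *uqcrb*, a small subunit near the ubiquinone site, at 94.8 against 86.2 CPM (0.14 [0.03, 0.25]). *cox7c* was the highest member of complex IV, at 977 against 394 CPM (1.31 [1.27, 1.35]). *cox4i2* was the lowest, at 3.88 against 11.9 CPM (-1.62 [-2.11, -1.16]), and *cox8b*, a muscle isoform in mammals, was the other member at least 1.5-fold lower, at 31.6 against 50.3 CPM. In complex V, *atp5mea* was at 104 against 44.7 CPM (1.22 [1.09, 1.35]) and *atp5if1b*, one of 2 copies of the ATPase inhibitory factor, at 199 against 143 CPM (0.48 [0.39, 0.56]).

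Both kinds of HC showed this difference. In LLHCs the nuclear median of mutant over control was 0.93, with 68 of 82 members tested higher and 0 lower (20.1% and 33.3% of all features). In IEHCs it was 0.84, with 73 of 87 higher and 2 lower (16.2% and 30.9%). Medians over all features tested were -0.17 in LLHCs and -0.12 in IEHCs. Over features with at least 500 UMIs in the 2 profiles together they were 0.27 and 0.07. The mt- medians were 0.04 in LLHCs and 0.36 in IEHCs, so the mt- genes of LLHCs had nearly the same summed level in both libraries, 18942 CPM in mutant and 18751 CPM in control. Supporting cell markers moved with this contrast in LLHCs, at 922 CPM in mutant and 2995 CPM in control, and globin took 0% and 1.59% of LLHC UMIs. In IEHCs supporting cell markers were at 797 and 717 CPM. The part of either in the nuclear difference was not tested.

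HCs were not the only group with a higher nuclear median in the mutant library. In neurons the nuclear median was 0.71, with 59 of 91 members higher and 2 lower in the mutant library, against 14% and 32.9% of all features. In the rest it was 1.00, with 78 of 93 higher and 1 lower, against 37.5% and 16.7%, but the median over all features was 0.32 there. Without barcodes of 20% globin or more, which were 50.2% of the control rest, the nuclear median of the rest was 0.72. In hepatocytes the nuclear median was 0.28, with 20 of 91 higher and 7 lower, against 14.9% and 34.4%. The 7 were *ndufs1*, *ndufs8a*, *ndufb11*, *cox5b2*, *ndufa4*, *cox4i2* and *cox8b*. Features of the mitochondrial genome outside the mt- genes took 1.82% of mutant and 11.7% of control hepatocyte UMIs, and 1.95% and 7.16% in neurons. With CPM computed without globin and the whole mitochondrial genome, chosen after seeing the data, these nuclear medians were under 1.5-fold. They were 0.55 in neurons, 0.13 in hepatocytes and 0.58 in the rest.

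**Figure D4:**
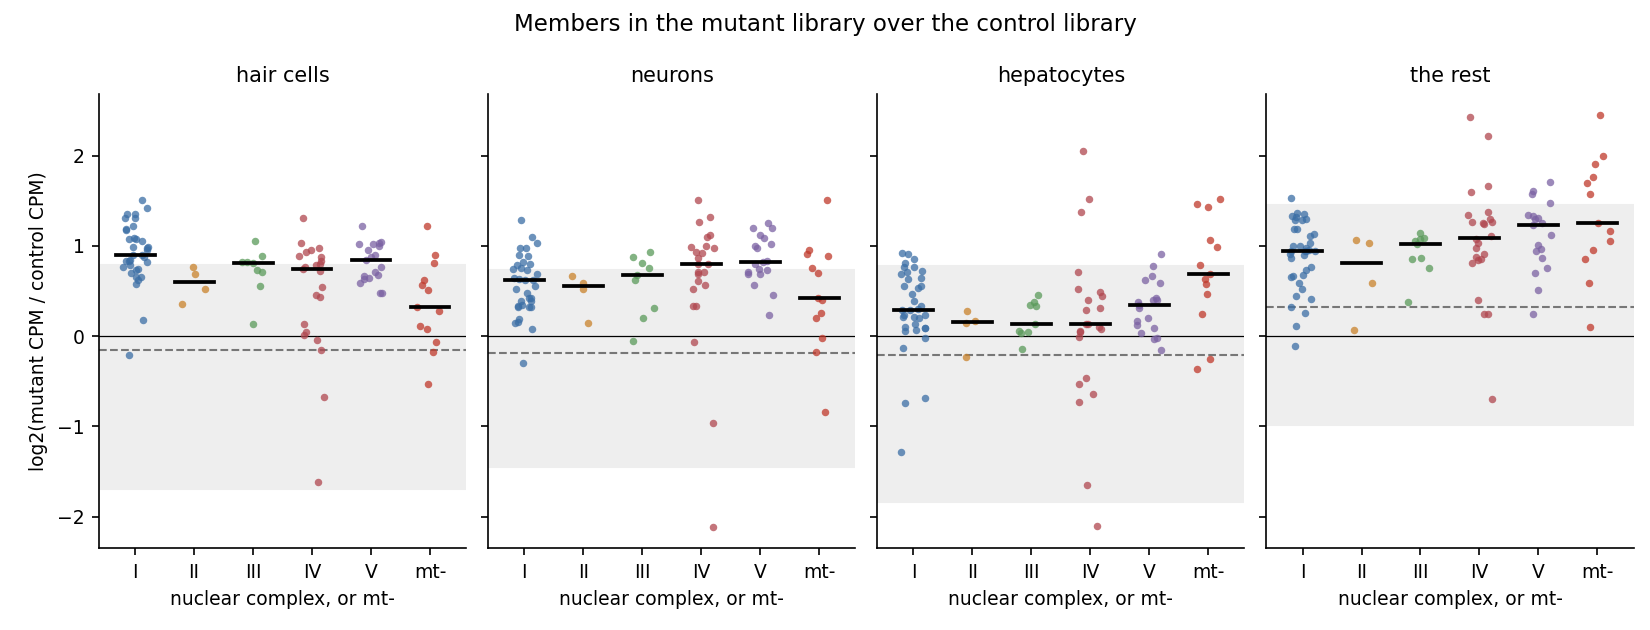
Log2 ratio of mutant over control CPM for each member with at least 50 UMIs, by nuclear complex and for mt- genes, in 4 cell groups. Black bars are medians, the dashed line is the median of all features and the grey band their 10th to 90th percentile. Nuclear medians over all complexes were 0.82 in HCs, 0.71 in neurons, 0.28 in hepatocytes and 1.00 in the rest.

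Other measures moved with the same contrast in HCs. The 16 HC markers, which are 17 features because 2 carry the symbol *cdh23*, had a median log2 ratio of 0.92 of mutant over control, and 16 of 17 were above 0. The 24 features of the mitochondrial genome other than the 13 mt- genes together took 2.08% of mutant and 9.11% of control HC UMIs, and globin took 0.000462% and 2.21%. With CPM computed without globin and without the whole mitochondrial genome, chosen after seeing the data, the nuclear HC median was 0.68 and 58 members were 1.5-fold higher. The share of all features was not computed under that scaling. With HCs gated on *otofb* as well the nuclear HC median was 0.86. Skin markers summed to 802 and 745 CPM and supporting cell markers to 948 and 920 CPM in mutant and control HCs. The 6 skeletal muscle markers summed to 11.3 CPM in mutant HCs, with 1 of them at 0, and to 167 CPM in control HCs. The part of marker level in the difference was not tested, and genotype and Cell Ranger version cannot be told apart.

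The mt- genes differed less in HCs, and they differed from one another in direction. Their median log2 ratio of mutant over control was 0.32, with 4 of 13 at least 1.5-fold higher and 0 lower, against 16.1% and 33.2% of all features. In neurons it was 0.42 with 6 higher and 1 lower (14% and 32.9% of all features), and in hepatocytes 0.69 with 8 higher and 0 lower (14.9% and 34.4%). In the rest it was 1.26 with 12 higher and 0 lower (37.5% and 16.7%), beside a median of 0.32 over all features. Without barcodes of over 20% mt- UMIs the median of the rest was 0.66.

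Complex I genes of the mitochondrial genome covered the whole range. *mt-nd4l* was at 58.0 CPM in mutant and 24.9 CPM in control HCs (1.22), *mt-nd1* at 1253 and 672 CPM (0.90), *mt-nd5* at 377 and 216 CPM (0.81) and *mt-nd2* at 671 and 452 CPM (0.57). *mt-nd4* was at 682 and 712 CPM (-0.06), *mt-nd3* at 243 and 273 CPM (-0.17) and *mt-nd6* at 54.6 and 78.7 CPM (-0.53). In vertebrates *mt-nd6* is the one protein gene on the light strand, and *mt-nd4l* and *mt-nd4* overlap and share a transcript. The ratios of *mt-nd4l* and *mt-nd4* differed by more than 1 log2 unit in this contrast.

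The other mt- genes were closer to each other. *mt-cyb*, the cytochrome b of complex III, was at 4586 and 3784 CPM in mutant and control HCs (0.28). The complex IV core genes *mt-co1*, *mt-co2* and *mt-co3* were at 3640 and 3440 CPM, 6207 and 4956 CPM, and 4697 and 4355 CPM (0.08, 0.32 and 0.11). The complex V genes *mt-atp6* and *mt-atp8*, which also share a transcript, were at 3572 and 2513 CPM and at 40.4 and 26.1 CPM (0.51 and 0.63). *mt-nd6* had the lowest and *mt-nd4l* the highest ratio in each of the 4 cell groups, at -0.84 and 1.51 in neurons, -0.37 and 1.52 in hepatocytes and 0.10 and 2.45 in the rest. The 4 groups come from the same 2 libraries and are not independent.

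**Figure D5:**
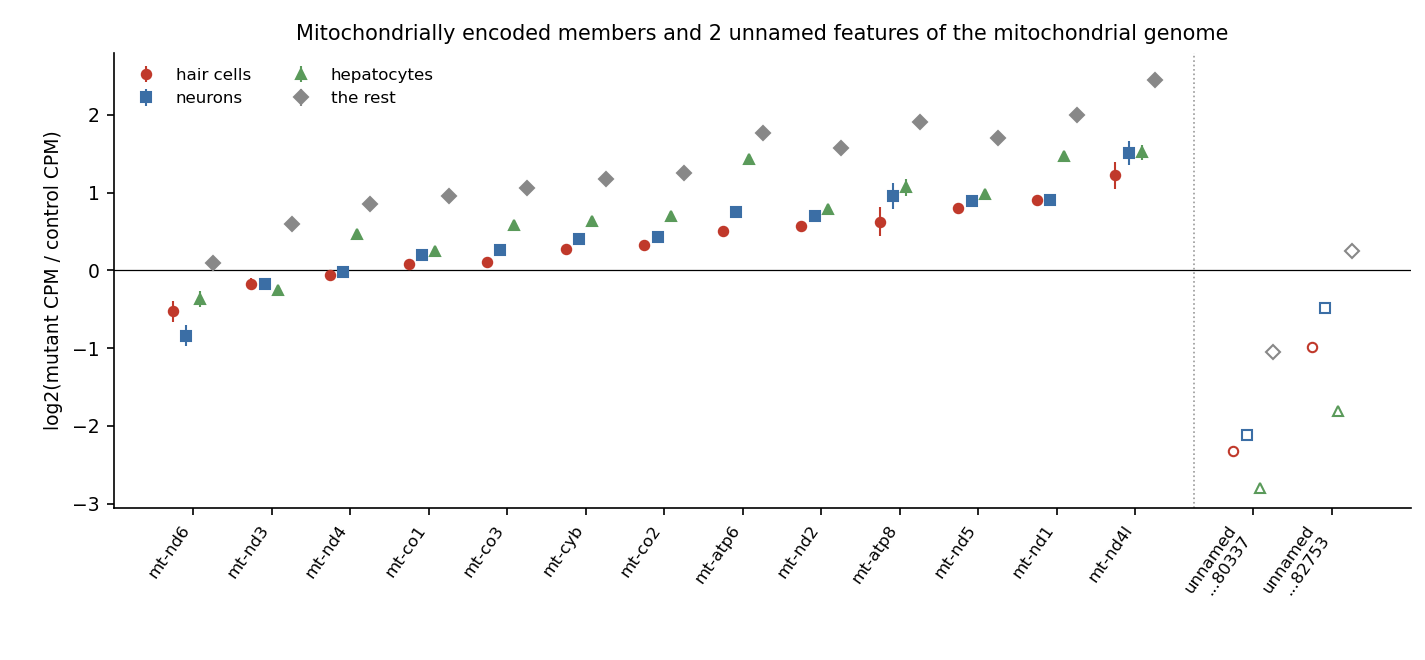
Log2 ratio of mutant over control CPM for the 13 mt- members in 4 cell groups, with 95% conditional binomial intervals, ordered by the ratio in HCs except for near ties. On the right, open symbols show 2 unnamed features of the mitochondrial genome (ENSDARG00000080337 and ENSDARG00000082753), of which the first was lower in the mutant library in every group. *mt-nd6* ran from -0.84 to 0.10 and *mt-nd4l* from 1.22 to 2.45.

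Lists of related genes placed these values among other mitochondrial and housekeeping functions in HCs. Assembly factors and chaperones of the complexes had a median log2 ratio of mutant over control of 0.40, with 17 of 48 at least 1.5-fold higher and 3 lower, against 16.1% and 33.2% of all features. Citrate cycle enzymes had a median of 0.50 (4 of 18 higher, 0 lower), mitochondrial ribosomal proteins 0.50 (31 of 76 higher, 2 lower), glycolytic enzymes 0.39 (9 of 26 higher, 6 lower) and regulators of mitochondrial DNA and its transcription 0.01 (1 of 15 higher, 2 lower). Genes with symbols of cytosolic ribosomal proteins had 0.29 (9 of 85 higher, 5 lower), and genes with symbols of proteasome subunits 0.79 (32 of 39 higher, 0 lower). The symbol rule also took *rps19bp1* and *rps6kal* into the first of these lists and *psmc3ip*, which was among the 32, into the second, and these encode no such subunits. Stress response genes had a median of -0.84 (3 of 18 higher, 10 lower), but their summed level was higher in mutant HCs, at 49594 CPM against 39759 CPM in control HCs (0.32), and the 3 higher genes were *hsp70.1*, *hsp70.2* and *hsp70l*. The shares of proteasome, mitochondrial ribosomal, assembly and glycolytic genes that were higher lay above that of all features, and the share of cytosolic ribosomal genes lay below it. The citrate cycle (4 of 18), stress response (3 of 18) and mitochondrial DNA lists (1 of 15) are short. Their counts of higher genes are not read as differing from the 16.1% of all features.

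The other lists did not order in the same way in every cell group. The proteasome list, whose HC median was close to that of the nuclear members, had medians of 0.04 in neurons, 0.04 in hepatocytes and -0.30 in the rest, where the nuclear members had 0.71, 0.28 and 1.00. Within libraries, assembly factors had medians of 1.1 and 0.71 for HCs over neurons in mutant and control, citrate cycle enzymes 0.92 and 0.95, mitochondrial ribosomal proteins 1.02 and 0.73, and cytosolic ribosomal proteins 0.10 and 0.22. For LLHCs over IEHCs, citrate cycle enzymes had medians of -0.85 and -0.83, glycolytic enzymes -1.29 and -0.80, mitochondrial ribosomal proteins -0.56 and -0.92, and cytosolic ribosomal proteins 0.38 and -0.05.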

How the data were processed

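The authors deposited UMI counts per gene and cell barcode, 1 matrix per library, without normalization. The matrix headers name Cell Ranger 9.0.1 (mutant) and 7.1.0 (control), and the submitters' processing notes name GRCz11 and Seurat. The annotation release is not given in the sources used here. The libraries held 81920586 (mutant) and 180590990 (control) UMIs in 10119 and 19270 barcodes. The labels do not say how many larvae were pooled.

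Barcodes with at least 500 genes were gated as described, and those in more than 1 gate were left out. No doublet caller was run, the paper describes doublet exclusion in sorting, and 49 barcode sequences occur in both libraries. UMIs were summed per library and group and divided by the total (CPM). The 3′ tags were not divided by gene length. Ratios used features with at least 50 UMIs in the 2 profiles together, 0 counts took a floor of 3 UMIs, and 95% intervals were exact Poisson (CPM), binomial (shares) or conditional binomial (ratios). Python 3.11.15, numpy 2.4.6, scipy 1.17.1, pandas 2.3.3 and matplotlib 3.10.9 were used, and the ratio function was tested on simulated data. Of 109 member IDs, 108 were found in the gene name table. ndufa4 genes were placed in complex IV and atp5if1 genes, inhibitors of complex V, in complex V.

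Named genes were all mt- members, the highest and lowest member of each complex in HCs of mutant over control (at least 200 UMIs), the 3 highest and 3 lowest members of HCs over each other group, and paralog families whose copies peak in different groups. Members, gates and lists were chosen with earlier results of these data known. Alternatives changed the gates, depth, filters, scaling, UMI minimum and fold.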

Additional observations from a re-analysis of the deposited data

Results flagged for a closer look

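A feature of the mitochondrial genome with no gene name in the files, ENSDARG00000080337, is no member but took more HC UMIs than the 13 mt- genes together in the control library. It made up 1.65% of mutant and 8.25% of control HC UMIs, a log2 ratio of -2.33, beside 2.61% and 2.15% for the mt- genes. It was also lower in the mutant library in neurons (1.51% and 6.55%), hepatocytes (1.55% and 10.8%) and the rest (3.62% and 7.51%). What it encodes was not looked up here. Because it enters the total that CPM is divided by, values without the whole mitochondrial genome in that total are given with the alternatives.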

How the results depend on the processing

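Of 280 median log2 ratios under 17 alternatives, 274 kept their sign, and no member list that was past 1.5-fold turned round. Shares of all features were computed only for the main setting, so counts of members under an alternative have no such comparison. Values in mutant over control (M/C) are given for HCs, neurons, hepatocytes and the rest. At a 2-fold limit 21, 16, 3 and 46 nuclear members were higher and 1, 1, 3 and 0 lower. CPM without globin gave the rest a nuclear median of 0.64 M/C, and CPM without globin and mt- genes 0.67. CPM without globin and the whole mitochondrial genome, chosen after seeing the data, gave nuclear medians of 0.68, 0.55, 0.13 and 0.58, an mt- median of 0.84 in the rest, and 11 (hepatocytes) and 46 (the rest) members higher. Under these 3 scalings HCs over the rest in the control library had nuclear medians of 0.55, 0.55 and 0.53 and mt- medians of -0.13, -0.13 and -0.15, and the first gave an mt- median of 0.40 for HCs over neurons in control.

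Leaving barcodes of 1% globin or more out of the rest gave M/C medians of 0.72 (nuclear) and 0.75 (mt-), and control HCs over the rest of 0.59 and -0.35. At 20% globin, chosen after seeing the data, these were 0.72, 0.76, 0.58 and -0.36. At most 20% mitochondrial UMIs gave mt- medians of 0.66 for M/C in the rest and -0.056 for mutant HCs over the rest, which was -0.58 with at least 1000 genes per barcode.

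The mean over barcodes gave nuclear medians of 0.56 (M/C, neurons), 0.84 (M/C, the rest), 1.02 and 1.05 (HCs over the rest, mutant and control), mt- medians of 0.68 (HCs over neurons, mutant) and -0.55 (HCs over the rest, mutant), and 0 members lower in the rest. Thinning to 4000 UMIs gave 0.62 (nuclear M/C, neurons), 0.95 and 1.02 (nuclear HCs over the rest), 0.68 (mt- HCs over neurons, mutant), and 1 (HCs) and 0 (the rest) members lower. Without the 5% of barcodes with the most UMIs the values were 0.93 (nuclear M/C, the rest), 0.98 and 1.01 (nuclear HCs over the rest), -0.55 (nuclear HCs over hepatocytes, control) and -1.55 (mt- HCs over hepatocytes, mutant). A minimum of 200 UMIs left 1 member lower in neurons.

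Assigning barcodes of several gates by priority gave a nuclear HC median of 0.74 M/C. Stricter gates gave 0.62 (nuclear M/C, neurons), 1.22 (nuclear) and 0.40 (mt-) for control HCs over neurons and 0.022 (mt-) for control HCs over the rest. With otofb added to the HC gate, chosen after seeing the data, mt- medians in control were 0.34 over neurons and 0.065 over the rest, and nuclear medians were -0.60 over hepatocytes (control) and 0.89 over the rest (mutant). With IEHCs alone, also chosen later, nuclear medians in mutant and control were 1.40 and 1.27 over neurons, 0.026 and -0.51 over hepatocytes and 0.95 and 1.02 over the rest, and mt- medians were 0.23 and 0.28 over neurons and 0.012 over the rest (control). The cause of these shifts was not tested.

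No paired analysis was possible because each genotype has 1 library, and leaving out a replicate was not possible for the same reason. Intervals cover counting error and say nothing of the spread between larvae or libraries. Levels of members under 50 UMIs, and of LLHCs with 57 and 91 barcodes, are the least precise.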

Other observations

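Across barcodes, the nuclear and mt- shares were related with opposite signs in hepatocytes and IEHCs, alike in both libraries. Spearman's rho was -0.53 over 622 mutant and -0.41 over 1073 control hepatocytes, and 0.37 over 666 mutant and 0.31 over 742 control IEHCs. The sign turned between the libraries in LLHCs, with 0.17 over 57 mutant and -0.43 over 91 control barcodes. It also turned in the rest, with 0.07 over 2933 mutant and -0.09 over 11265 control barcodes. In neurons rho was -0.12 and -0.006, and in all HCs together it was 0.14 and 0.17, in mutant and control. The shares of a barcode have the same total as divisor, and the barcodes of a group come from 1 library. The nuclear share also went with the total UMIs of the barcode in each cell group (rho 0.44 over 975 mutant and 0.33 over 1158 control HCs). In mutant and control this rho was 0.52 and 0.54 in hepatocytes, 0.43 and 0.28 in neurons, and 0.32 and 0.22 in the rest. Within the kinds of HC it was 0.23 and 0.13 in IEHCs and -0.14 and 0.19 in LLHCs.

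HCs with neither *lhfpl5* copy in excess, 252 mutant and 325 control barcodes, had the highest mt- share among HCs. It was 3.64% in mutant and 2.78% in control, against 1.89% and 1.88% in LLHCs and 2.40% and 1.93% in IEHCs. Their nuclear share was 2.16% and 1.60%, and the median depth 6895 and 10456 UMIs. These barcodes carry part of the HC values but neither the LLHC nor the IEHC values.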
